A study of Mus musculus with 2 samples.

Results

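Stefins and cystatins are natural inhibitors of cysteine proteases, and 7 of their genes (Stfa1, Stfa2, Stfa2l1, Stfa3, Cstb, Cst3 and Cst6) were examined in the air pouch membrane with and without monosodium urate (MSU) crystals. The genes were chosen by family membership with their MSU over control ratios in these arrays already known, so that the ratios below are a description and were not tested. Each probe set (a set of short probes read together as 1 value) that the platform annotation assigns to any of these genes was taken. This gave 7 probe sets for 6 of the 7 genes. A probe set of their own was found for 5 genes, of 18193 genes on the array with one.

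These inhibitors fit like a wedge into the active site of proteases of the papain family, the cysteine cathepsins, which degrade proteins in lysosomes and, when released, outside cells. Stefins lack a secretion signal and act mainly in the cytosol, whereas cystatins are secreted. In the mouse, stefin A is not encoded by a single gene but by a cluster of closely related copies, known from neutrophils and other myeloid cells and from epidermis. Stefin B (Cstb) and cystatin C (Cst3) are made by most cell types, and cystatin M/E (Cst6) is best known from skin.

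The control group consisted of 3 female Balb/C mice, 6 to 8 weeks old, whose pouches had received 1 ml PBS. The MSU group consisted of 3 such mice that had received 2 mg MSU crystals in 1 ml PBS. Pouches were raised with 2 ml air and injected on day 7 by the sample records, while the paper's methods give another air volume and an earlier day. The pouch was rinsed out and the membranes were dissected 9 h after injection, and RNA of the 3 mice of a group was pooled and hybridized to 1 array, so that there were no replicates and a difference in signal holds no measure of the spread between mice.

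Signals were linear intensities scaled to the same trimmed mean on both arrays. For each array a detection floor was set so that the number of brighter probe sets equalled the number that the study counted as detected. It stood at 64.6 for control and 74.1 for MSU. A ratio of MSU to control is called a fold if neither signal was under its floor. Where a single signal reached it, "at least" a fold is given against the floor of the other array. Genes with either value are called measured. The RNA came from whole membranes, in which fewer cells of a type and less RNA per cell cannot be told apart. Of the fibroblast markers, 11 of 11 lay above the floor on both arrays, as did 14 (control) and 15 (MSU) of 17 macrophage markers. Among the 22 markers of epidermis with a probe set, 8 in control and 5 in MSU exceeded it.

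Of the 7 genes, 4 were measured. With MSU, Stfa2l1 and Stfa3 passed 2-fold upwards, Cst3 was 2.00-fold lower, and Cstb lay between these limits at 1.25-fold higher (lower if scaled on the spike-ins, the control transcripts added to each sample). Stfa1 was represented by a probe set shared with another stefin gene alone, Stfa2 by none, and Cst6 lay below the floor in both pools. Among all 11155 measured genes, 3.70% were higher by 2-fold or more with MSU, and 4.29% were lower by as much. Because the genes were picked with these ratios known, nothing is read from the difference between their counts and these shares.

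**Figure D1:**
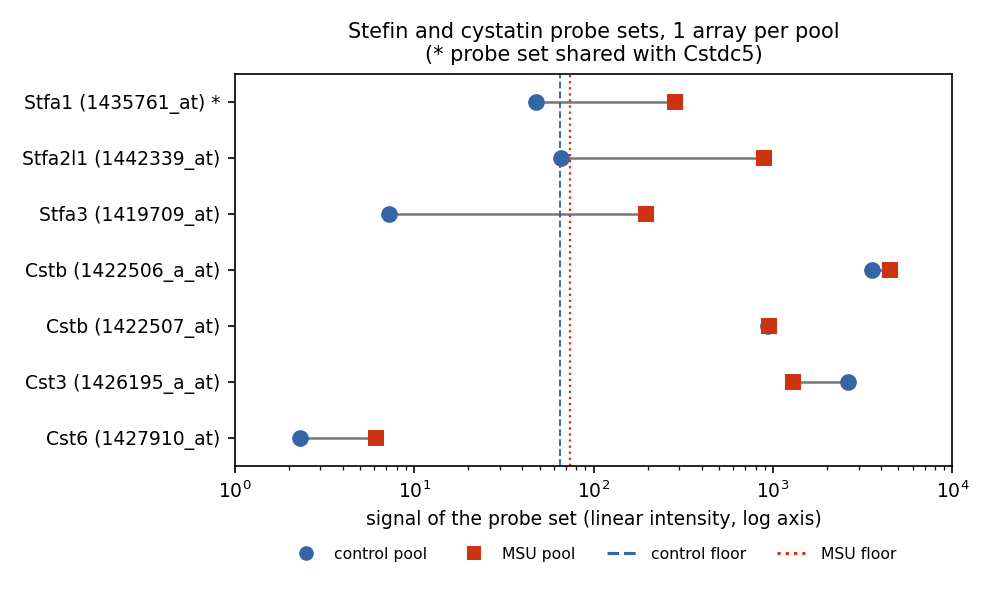
Signal of each stefin and cystatin probe set (y axis, with its gene) on the control array (blue circles) and the MSU array (red squares), as linear intensity on a log x axis, with 1 array per pool, no error bars and the detection floors (64.6 and 74.1) as vertical lines. The 3 stefin A probe sets run from near or below the floor to well above it, Cst3 runs the other way, and both Cst6 points lie far left of the floors.

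Stfa2l1, a stefin A copy, had a signal of 65.5 with PBS and 893 with MSU on its probe set 1442339_at. The MSU signal was 13.6-fold higher, a log2 ratio of 3.77, which ranked 6 among the 10045 genes with a fold. The control signal lay just above the floor of 64.6, so that the size of this fold rests on a signal near the limit of detection. If the floor was raised to the signal of rank 15000 on either array (115 and 117), the control signal was below it, and the MSU signal was at least 7.73-fold higher. Scaled on the spike-ins the fold was 9.93.

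Stfa3, another copy, had a signal of 7.26 with PBS and 196 with MSU on probe set 1419709_at. It was thus below the floor with PBS and above it with MSU. Against the floor the MSU signal was at least 3.03-fold higher. The plain ratio of the 2 signals was 27.0, rank 10 among 19898 probe sets above the floor of the MSU array, but its denominator is a signal that was not detected. With the higher floor the bound was 1.70-fold.

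Stfa1 was named by probe set 1435761_at alone, which the annotation assigns to Cstdc5 as well, a further stefin-like gene of the same cluster. Its signals were 47.9 with PBS and 285 with MSU. The plain ratio was 5.95, and the bound set by the floor was at least 4.41-fold higher, or 2.47-fold with the raised floor. The value belongs to Stfa1, to Cstdc5 or to both, and the probe set was therefore counted for neither. Stfa2 has no value, since no probe set in the annotation used here carries its name. Whether the probe sets of Stfa2l1 and Stfa3 also bind transcripts of other cluster genes, such as Stfa2, was not tested. All 3 stefin A probe sets were thus brighter with MSU, under each of the scalings tried, and 1 of them exceeded the control floor.

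The stefin A genes lie in a cluster on chromosome 16, and the start regions of the 4 named Stfa resemble each other. The 250 bases before the annotated start of each of the 4 genes are shown because they let the likeness of these gene copies be seen. The sequences are from RefSeq (mouse assembly GRCm38.p6), 5′ to 3′ on the strand of the gene. Capitals mark the 6 stretches of 10 or more bases that all 4 hold without a difference, 71 bases in all.
Stfa2l1 (chr16:36156561-36156810, plus strand): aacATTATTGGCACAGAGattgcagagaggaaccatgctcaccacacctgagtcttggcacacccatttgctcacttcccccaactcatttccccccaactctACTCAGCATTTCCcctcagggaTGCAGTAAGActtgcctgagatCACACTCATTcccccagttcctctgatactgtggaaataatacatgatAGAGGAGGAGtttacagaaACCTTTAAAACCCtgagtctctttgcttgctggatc
Stfa2 (chr16:36408364-36408613, minus strand): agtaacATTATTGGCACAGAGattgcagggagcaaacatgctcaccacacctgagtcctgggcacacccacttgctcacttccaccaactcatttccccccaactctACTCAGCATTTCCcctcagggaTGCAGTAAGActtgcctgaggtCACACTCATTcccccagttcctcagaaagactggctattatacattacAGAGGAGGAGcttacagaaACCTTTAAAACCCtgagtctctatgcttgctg
Stfa1 (chr16:36276898-36277147, plus strand): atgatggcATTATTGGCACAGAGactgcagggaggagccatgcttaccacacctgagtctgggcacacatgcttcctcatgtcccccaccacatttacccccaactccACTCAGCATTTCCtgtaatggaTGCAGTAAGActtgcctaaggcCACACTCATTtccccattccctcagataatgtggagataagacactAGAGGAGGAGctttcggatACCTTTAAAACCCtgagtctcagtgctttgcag
Stfa3 (chr16:36455393-36455642, minus strand): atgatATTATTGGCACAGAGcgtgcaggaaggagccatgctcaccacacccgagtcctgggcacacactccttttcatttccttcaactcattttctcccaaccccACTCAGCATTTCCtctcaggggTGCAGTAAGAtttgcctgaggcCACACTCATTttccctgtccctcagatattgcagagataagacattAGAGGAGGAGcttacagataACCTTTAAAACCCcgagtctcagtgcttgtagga

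Between pairs of these 4 regions, 80.4% to 89.4% of aligned positions were identical, with the highest value for Stfa2 and Stfa2l1. Of the other cluster genes compared with these 4, Cstdc5 gave 70.1% to 81.2%, Cstdc4 68.7% to 72.9% and Csta3 57.5% to 61.1%. Cstdc3 gave 50.2% to 50.7%, Csta2 45.3% to 48.5% and Csta1 37.7% to 41.5%. The start regions of the 4 Stfa genes against that of Cst3, on another chromosome, gave 42.2% to 45.3%. Against Cst7 they gave 48.1% to 50.7%, and against the more distant family gene Fetub 48.8% to 52.1%. None of the Cstdc3, Csta2 and Csta1 values exceeded the highest of these. Cst3 against Cst7 gave 46.6%. The longest shared stretch, ATTATTGGCACAGAG, was present in 5 of 27025 mouse start regions of the same length, on either strand. These were the 4 genes shown and Cstdc5, with which Stfa1 shares its probe set. The stretch nearest to the start, ACCTTTAAAACCC, began 32 to 36 bases before it and occurred in 7 regions, namely those of the 4 genes, Csta3, Cstdc4 and Gm7260.

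A search of both strands for the TATA box letters TATAAA, present in 13.0% of all start regions, found no match in the 4 genes. The AP-1 letters TGACTCA (4.43% of regions) and the PU.1 letters GAGGAAGT (2.44%) gave no match either, nor did the NF-κB letters GGGACTTTC (0.278%), GGAATTTCC (0.292%) and GGAAATCCC (0.292%). The C/EBP letters TTGCNNAA (9.55%) matched once, at position -109 from the start of Stfa1. With 1 match in all, no matches overlapped. A match or its absence in this window is a description of the letters alone.

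Of the stefin A cluster, which holds 11 genes with the names Stfa, Csta or Cstdc, 7 were named by a probe set, and these shared 5 probe sets. Beside the 3 described, Csta1 had signals of 4.22 and 19.1. The probe set shared by Csta2 and Cstdc4 had signals of 1.85 and 47.3. Both were below the floor in both pools, so that no fold is given for them. The 3 probe sets described before reached the floor of the MSU array, and for these 2 no direction is counted. Csta3, Cstdc3, Cstdc6 and Stfa2 had no probe set.

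**Figure D2:**
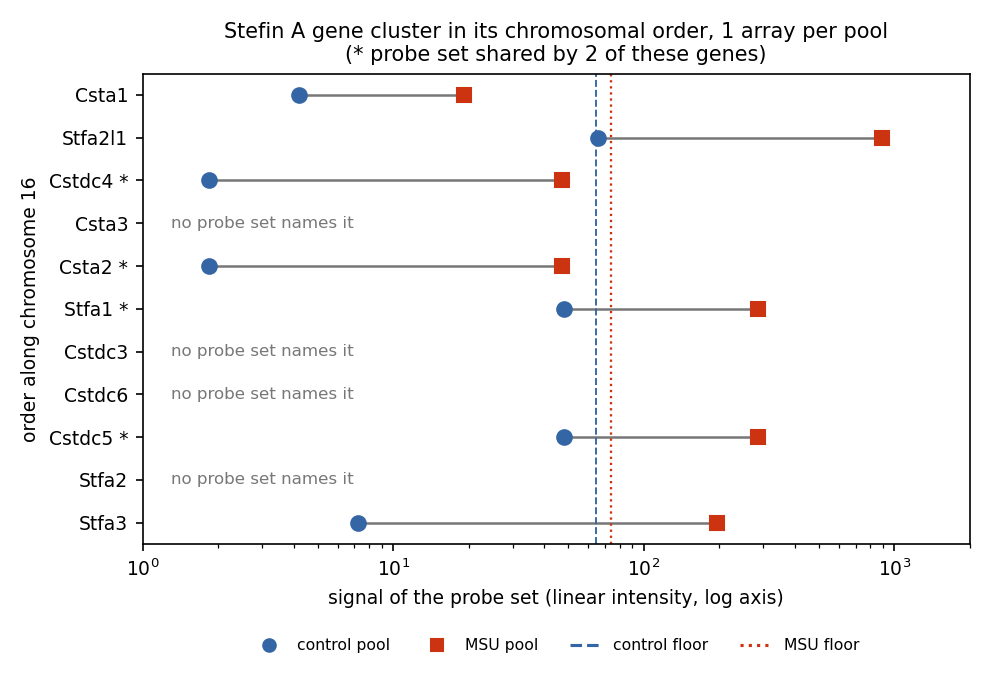
Signals of the 11 stefin A cluster genes in their order along chromosome 16 (y axis, not to scale), on the control array (blue circles) and the MSU array (red squares), as linear intensity on a log x axis with the detection floors as vertical lines, 1 array per pool. A star marks a probe set shared by 2 of the genes, whose points are therefore drawn under both names. The MSU point lies right of the control point for all 7 genes with a value. For Csta1, Csta2 and Cstdc4 both points lie left of the floors, so that their direction is not counted. A further 4 genes have no value.

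Cstb, the stefin with the widest tissue distribution, was above the floor in both pools. Its probe set 1422506_a_at had a signal of 3577 with PBS and 4472 with MSU, 1.25-fold higher. On the second probe set, 1422507_at, the signals were 937 and 946 and their ratio 1.01. Over 4002 genes with several probe sets, the log2 ratios of a gene differed among them with a pooled SD of 0.33 and a median SD of 0.22, in which the mice play no part. The Cstb values were 0.32, between these SDs, and 0.01, below both. Scaled on the 18 spike-in probe sets, which shifts every log2 ratio by -0.46, the first became lower in the MSU pool at -0.13. The second became -0.44 on the spike-ins and -0.06 when scaled on the array medians. The direction of Cstb therefore depended on the scaling.

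Cst3, the secreted cystatin C, was the member with a lower signal in the MSU pool. Its single probe set, 1426195_a_at, read 2602 with PBS and 1300.0 with MSU, 2.00-fold lower. This ranked 418 from the lowest among the 10045 genes with a fold. Cst3 thus lay just past the limit of 2-fold, and Cstb at 1.25-fold was the measured member that did not reach it. When the floors were added to the signals before the ratio was taken, Cst3 was 1.94-fold lower and was no longer counted. The signal stayed lower in the MSU pool under all 3 other scalings, with log2 ratios between -1.46 and -1.03.

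Cst6, the cystatin of skin that inhibits legumain as well as cathepsins, had signals of 2.31 and 6.12 on probe set 1427910_at. Both are far below the floors, at 3.58% of the control floor and 8.26% of the MSU floor. Nothing can be said of a difference.

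**Figure D3:**
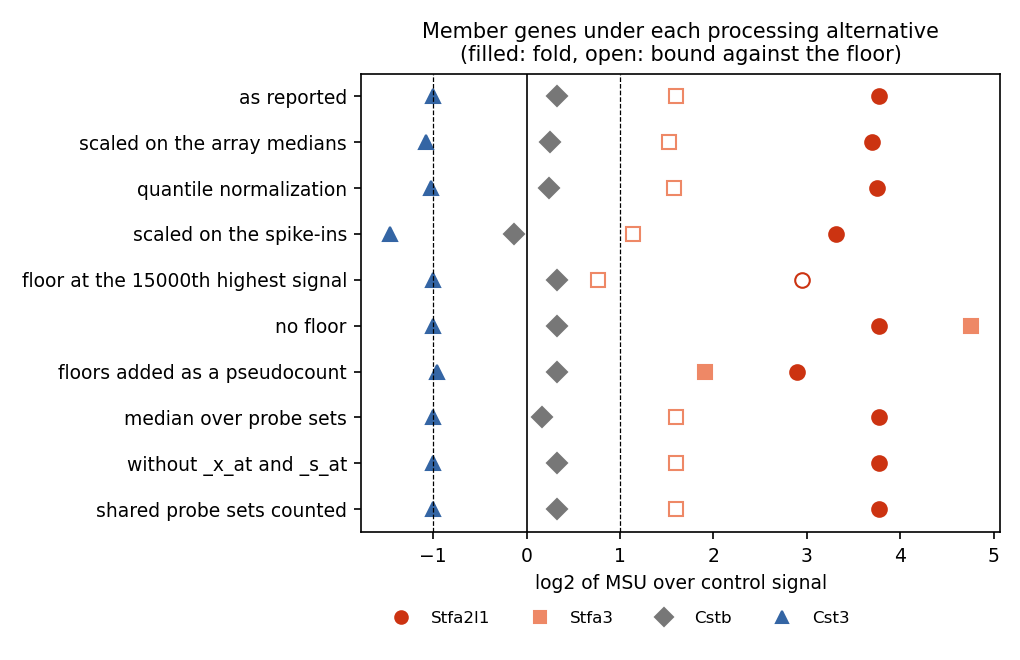
Log2 ratio, MSU to control, on the x axis for the 4 measured genes under the processing used and 9 alternatives (y axis) with 1 array per pool. Filled symbols are folds (without a floor, plain ratios), open symbols bounds, and dashed lines mark 2-fold. Cst3 lies between -1.46 and -0.96 and Stfa2l1 between 2.89 and 3.77 (a bound with the raised floor), Stfa3 runs from a bound of 0.76 to a plain ratio of 4.76, and Cstb crosses 0 with the spike-in scaling alone.

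Signals of the other cystatin superfamily genes with a probe set of their own were low. Of 26 further family genes listed, 13 had one, and none of these reached the floor on either array. Their highest signals were 44.9 with PBS and 59.4 with MSU. Cstdc5, also listed, is not among them, since its probe set is shared with Stfa1 and read 285 with MSU. Cst7 (cystatin F), which regulates cathepsins inside immune cells, had signals of 44.9 and 28.8. The plasma protein genes Fetub and Hrg, with cystatin-like domains, had 28.6 and 59.4, and 19.1 and 31.8.

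Transcript signals of the enzymes that these inhibitors block stayed within 2-fold between the pools. Of 11 papain-like cathepsin genes and legumain, 10 were measured, and none passed 2-fold in either direction. Their median log2 ratio was -0.02, and that of all genes with a fold was -0.05. Passing 2-fold was rare on the whole array too (3.70% of measured genes upwards, 4.29% downwards). Its absence among these 10 genes therefore does not set them apart. The highest ratio was that of Ctss, the cathepsin of antigen-presenting cells, with signals of 5212 and 6678, or 1.28-fold higher (lower on the spike-ins, as were all 10). Ctsl, with 5476 and 6507, and legumain (Lgmn), with 4898 and 5802, were 1.19- and 1.18-fold higher. The lowest was that of Ctsk, the collagen-degrading cathepsin, with 2016 and 1470, or 1.37-fold lower.

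Ctsb, the cathepsin with signals of 9164 and 9359 on its brightest probe set, had a ratio of 1.02. Its 5 probe sets ranged from 0.713 to 1.76 in ratio. Ctsc, which activates the serine proteases of neutrophil granules, and Ctsh had ratios of 0.978 and 0.990, Ctsz 0.845, Ctsf 0.831 and Ctso 0.812. Ctsw lay below the floor in both pools. These directions depended on the scaling, with 6 of 10 ratios below 1 as reported, 7 under the median and quantile scalings and 10 on the spike-ins. Of the 4 cathepsins of other protease classes, Ctse was 1.56-fold higher on its brightest probe set and 1.13-fold higher on the other. Ctsa was 1.36-fold and Ctsd 1.15-fold lower, and Ctsg, the serine protease of neutrophil granules, lay below the floor.

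**Figure D4:**
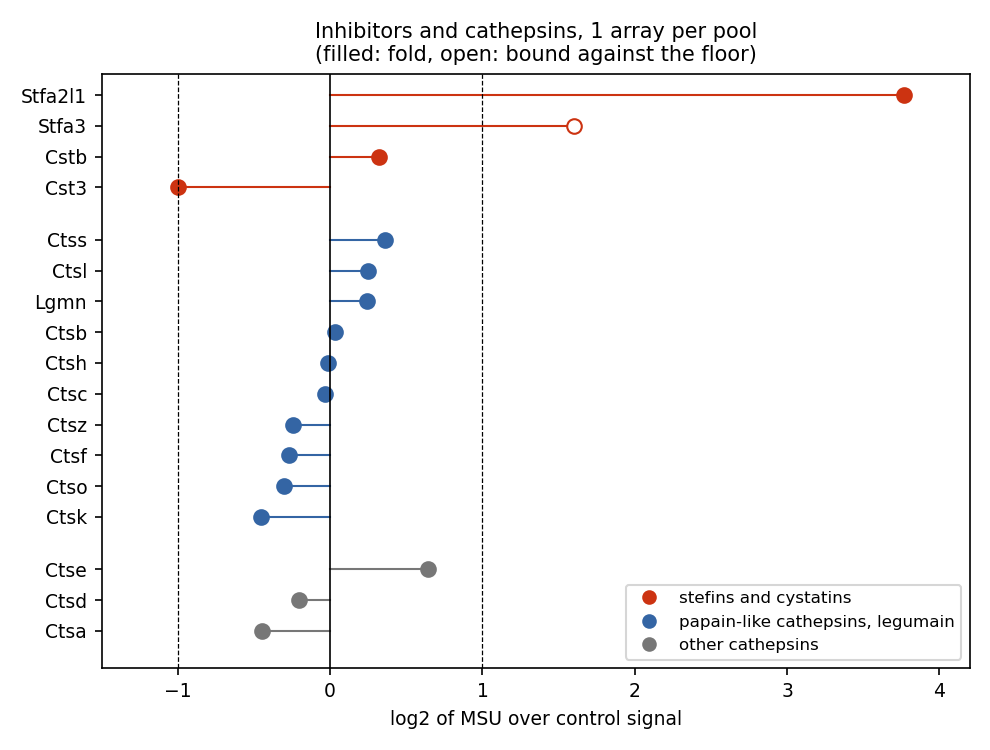
Log2 ratio, MSU to control, on the x axis for the 4 measured stefins and cystatins, the 10 measured papain-like cathepsins with legumain, and 3 other cathepsins (y axis), from 1 array per pool. A filled point is a fold, the open point a bound against the floor, and dashed lines mark 2-fold. The enzymes lie between -0.46 and 0.64, whereas Stfa2l1 lies at 3.77 and Cst3 on the lower dashed line.

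Likeness was taken from the signals on the 2 arrays (Euclidean distance of log2 signals, over 2 arrays alone), among genes with a fold. Of these, the genes most like Stfa2l1 were Ngp, Mmp8 and Il1f9 (IL-36γ). Genes under either floor were not searched, and the Stfa2l1 control signal lay just above its floor. Ngp, a neutrophil granule protein, had signals of 79.0 and 712 and a distance of 0.42. Mmp8, the neutrophil collagenase, had 75.8 and 599 and a distance of 0.61. Il1f9 had 87.8 and 623 and a distance of 0.67. Signals of different probe sets do not compare amounts of RNA, so that this likeness is one of signals. Nearest to Cstb were Rab1a, Ifitm3 and Tgfbi, all higher by less than 2-fold (lower on the spike-ins), and nearest to Cst3 were Cd81, Rps15 and Rpl8, at 2.16-, 2.06- and 1.75-fold lower.

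Most neutrophil markers were higher with MSU as well. Of 21 neutrophil markers, 18 had a probe set and 16 were measured. With MSU, 12 were higher by 2-fold or more (11 on the spike-ins) and none was lower by as much. Their summed signal was 5849 with PBS and 29133 with MSU, 4.98 times as high. S100a9, at 12.1-fold, and S100a8, at 10.6-fold higher, made up most of this difference, and without these 2 markers the sums were 4308 and 11719, or 2.72 times as high. The other 4 measured markers were Hp, Mpo and Ltf, with ratios of 1.32, 1.02 and 0.689, and Pglyrp1, at least 1.45-fold higher. Camp and Elane lay below the floor. The part of neutrophil number in the stefin A values was not tested.

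Macrophage markers, of which 15 of 17 were measured, had summed signals of 39332 and 37456. Among the 15, 2 passed 2-fold downwards, Trem2 at 5.15-fold and Folr2 at 2.05-fold, whereas upwards no marker did. Cd163, with signals of 1270 and 2467, and Mrc1, with 3609 and 6420, had the highest folds, at 1.94 and 1.78. Of 14 macrophage folds, 6 lay above 1 and 8 below (3 and 11 on the spike-ins). Glandular epithelium markers had summed signals of 2181 and 727, with 5 of 9 measured at least 2-fold lower (Krt8, Krt18, Krt19, Epcam and Aqp5). The part of either in the lower Cst3 signal was not tested. Epidermal markers, another source of stefin A and Cst6 transcripts, had summed signals of 1462 and 1705. Of the 8 measured, 1 was at least 2-fold higher, the transglutaminase Tgm1 at 3.75-fold, while none passed 2-fold downwards. The keratins Krt5 and Krt10 had signals of 112 and 45.8, and 78.6 and 45.8, and Sprr1a had 81.3 and 54.6, so that all 3 lay above the floor with PBS and below it with MSU. Sbsn, the brightest of the list, had 531 and 574, Tgm3 had 74.1 and 111, and Dmkn and Klk7 had ratios of 1.67 and 1.24. Fibroblast markers had summed signals of 64493 and 69178 and endothelial markers 1807 and 1442. Of the 11 fibroblast markers, Mfap5 was 2.11-fold lower and the other 10 stayed within 2-fold (2 were at least 2-fold lower on the spike-ins). No endothelial marker is counted as 2-fold different (1 lower on the spike-ins). Vwf, with signals of 108 and 22.9, lay below the floor with MSU and was at least 1.46-fold lower.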

How the data were processed

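The authors pooled RNA of 3 membranes per group, hybridized each pool to 1 Affymetrix Mo430_2 array and deposited 1 linear signal intensity per probe set, for which the submitters' processing notes name MAS5 (version not given in the sources used here), scaled by 1 factor per array. The values were used as deposited, for 45101 probe sets, of which 64 are array controls. By the platform annotation 34958 probe sets have 1 gene, 932 have several and 9211 are unlisted. Symbols were brought up to date by gene identifier with the RefSeq table of GRCm38.p6, which was used for names and gene order. Probe sets with several genes counted for none, and of several probe sets of a gene the brightest by mean log2 signal was taken.

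With 1 array per group no test was possible and no p-value was computed. Counts were made at a fixed 2-fold. Detection calls were not used here. The floors were set by rank, from the study's numbers of detected probe sets, so that a single probe set may lie on the other side of its Affymetrix call. Precision is limited by the number of arrays. The genes examined and the lists of family members, cathepsins and cell type markers were chosen with earlier results of these data known. Named are all members with every probe set, the cathepsins, the 3 genes nearest to each member with a fold, in the other lists up to 4 genes with the largest ratios and up to 2 with the highest signals, and the genes behind counts of 5 or fewer. Hrg and the epidermal markers other than Tgm1 and Sbsn were named after their values were seen, as was the neutrophil sum without S100a8 and S100a9 computed.

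Start regions came from the RefSeq promoter table, which holds 5 of the 7 genes (not Cstb and Cst6), and were aligned globally. Alternatives were 3 other scalings (array median, quantile, 18 spike-in probe sets), a floor at the 15000th highest signal, no floor, the floors as a pseudocount, the median over probe sets, a size of 3-fold, leaving out the _x_at and _s_at probe sets, and counting shared probe sets for each gene. The gene step was tested on simulated data with known changes. Computations used Python 3.11.15, numpy 2.4.6, pandas 2.3.3, Biopython 1.88 and matplotlib 3.10.9.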

Additional observations from a re-analysis of the deposited data

How the results depend on the processing

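The log2 values (folds, bounds or plain ratios) of Stfa2l1 and Stfa3 were above 0 and that of Cst3 below 0 under all 9 alternatives that give one. These genes have 1 probe set each, so that the alternatives on the choice of probe sets could not change their values. Leaving out the floor could not change the folds of Stfa2l1 and Cst3 either. A bound for a higher signal is above 0 by definition. Stfa2l1 ran from 2.89 to 3.77. Stfa3 ran from a bound of 0.76 with the higher floor to a plain ratio of 4.76, over an undetected control signal, without a floor, and Cstb turned from 0.32 to -0.13 on the spike-ins. With the higher floor the bound of Stfa3 fell under 2-fold, so that the count of members higher by 2-fold or more was 1 in place of 2. It was 3 without a floor, where Cst6 was added, and 3 when shared probe sets were counted, where Stfa1 was added. The count of members at least 2-fold lower was 1 and became 0 at 3-fold and 0 with the floors as a pseudocount, since Cst3 lay at the limit. The count of cathepsins and other family genes at least 2-fold different was 0, against 5 without a floor (Cst13, Csta1 and Fetub higher, Cst11 and Ahsg lower, all below the floor in both pools) and 1 with shared probe sets counted (Cstdc5). Scaling on the spike-ins shifted every log2 ratio by -0.46, gave 3.31 for Stfa2l1 and -1.46 for Cst3, and took the share of all measured genes at least 2-fold lower from 4.29% to 15.9%. No replicate could be left out, and no paired analysis was possible because each group had 1 array. Signals below the floor limit what can be said of Cst6, of most family members and of the control level of the stefin A genes.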

Other observations

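Among cystatin family genes below the floor in both pools, the largest plain ratio on a probe set of a single gene was that of Cst13, with signals of 4.54 (control) and 35.6 (MSU). Ahsg (fetuin-A) had signals of 18.4 and 5.42. Both genes were chosen after their values were seen, and as no signal reached the floor, neither is counted as a difference.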
